A study of Mus musculus with 15 samples.

Results

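Crhbp, Reln, Cgref1, C1qtnf6, Mfge8 and Megf10 were followed across the pituitaries of 4 groups of mice that differed in sex and in how many copies of Nr5a1 kept its pituitary enhancer (PE). The genes were taken from the count table by symbol, 6 of 55523 rows, and were chosen by their counts over these groups, which were known from earlier results to differ. Every level, fold and call given for them is therefore a description, with no p-value, and 5 of them encode secreted proteins while Megf10 encodes a membrane receptor. Whole glands were sequenced from PE+/- males (n = 4), PE-/- males (n = 4), PE+/- females (n = 4) and PE-/- females (n = 3), where PE-/- mice lack the enhancer on both copies of the gene and PE+/- mice, the controls, lack it on 1 copy. No group with the enhancer on both copies was analysed here, and the age of the mice that gave these libraries is not given in the sources used here. The deletion was made by genome editing in fertilised eggs and was present in every tissue, so the gonads and the brain of these mice carried it as well. The labels do not say whether libraries of a group came from separate mice, so the spread between replicates may be partly technical.

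Nr5a1 encodes a nuclear receptor made in the gonadotropes, the pituitary cells that secrete luteinizing hormone and follicle-stimulating hormone, and the PE is the element that drives it there. CRHBP binds corticotropin-releasing hormone (CRH) and limits its access to the CRH receptors, which in the pituitary sit on corticotropes, the cells that make ACTH from Pomc. Reelin, the product of Reln, is a large glycoprotein of the extracellular matrix that binds VLDLR and LRP8 and acts through the adaptor DAB1, a pathway known for the placing of neurons. CGREF1 is a secreted protein with EF-hand domains that was named for its effect on cell growth, and C1QTNF6 is a collagen-like relative of adiponectin. MFGE8 is a secreted bridge between phosphatidylserine on dying cells and integrins of phagocytes, and MEGF10 is a receptor with EGF-like repeats by which cells take up dying neighbours.

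The sequences upstream of these genes are shown because the genes differed in level between the same groups, and Nr5a1 encodes a factor that binds DNA. In RefSeq promoters on GRCm38.p6, the 250 bases before the start site were searched on both strands for 6 motifs, spelled GGTCA and TGACC with any 3 bases between them (an estrogen response element), AAGGTCA (a site of the kind NR5A1 binds), AGGTCA and GGTCA (the core shared by many nuclear receptors), TGACTCA (an AP-1 site) and TGACGTCA (a cAMP response element). A match to AAGGTCA or AGGTCA also counts as a match to the shorter motifs inside it. Promoters were given for 5 of the 6 genes, and Megf10 had no entry. The stretches below run from 5′ to 3′ on the strand of each gene, all on the minus strand, without the annotated exon bases, and capitals mark a match to GGTCA or to TGACTCA read on either strand.
Crhbp, chr13:95444925-95445081: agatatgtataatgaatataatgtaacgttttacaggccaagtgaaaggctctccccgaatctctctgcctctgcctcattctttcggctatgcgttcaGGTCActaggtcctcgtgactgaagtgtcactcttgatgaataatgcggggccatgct
Reln, chr5:22344706-22344955: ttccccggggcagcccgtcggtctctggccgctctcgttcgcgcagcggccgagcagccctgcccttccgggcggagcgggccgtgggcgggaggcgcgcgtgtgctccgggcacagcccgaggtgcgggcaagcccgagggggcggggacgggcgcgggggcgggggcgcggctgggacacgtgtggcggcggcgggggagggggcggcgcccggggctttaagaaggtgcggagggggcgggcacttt
Cgref1, chr5:30945592-30945730: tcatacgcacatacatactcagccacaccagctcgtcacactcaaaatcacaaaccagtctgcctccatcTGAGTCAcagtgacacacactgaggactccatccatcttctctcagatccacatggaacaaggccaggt
C1qtnf6, chr15:78529652-78529901: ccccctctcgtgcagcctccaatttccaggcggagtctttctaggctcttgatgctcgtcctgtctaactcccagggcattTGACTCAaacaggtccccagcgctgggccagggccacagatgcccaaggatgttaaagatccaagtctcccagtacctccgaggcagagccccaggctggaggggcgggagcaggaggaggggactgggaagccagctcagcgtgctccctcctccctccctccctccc
Mfge8, chr7:79149061-79149310: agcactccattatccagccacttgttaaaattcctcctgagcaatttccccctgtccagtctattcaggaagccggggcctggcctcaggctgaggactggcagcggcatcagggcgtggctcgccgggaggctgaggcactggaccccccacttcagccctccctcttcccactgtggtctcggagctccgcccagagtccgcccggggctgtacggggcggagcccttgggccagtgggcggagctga

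The Crhbp promoter held 1 match to AGGTCA, and to the GGTCA inside it, whose GGTCA began 151 bases before the start site. Of 32851 promoters, 14% held AGGTCA and 35.2% held GGTCA in the same window. The promoter of Cgref1 held 1 match to TGACTCA, on the minus strand of the printed sequence and 180 bases before the start, and that of C1qtnf6 held 1 match 169 bases before the start, where 4.46% of promoters held this motif. Both entries for Cgref1 covered the same match, which lay 233 bases before the start site of the second. In Reln and Mfge8 these letters were not found in the window. The estrogen response element, AAGGTCA and TGACGTCA, held by 0.0639%, 4.08% and 1.55% of promoters, were found in none of the 5 genes. The Reln window was the richest in G and C of the 5 at 80% and the Crhbp window the poorest at 47.2%. The annotation of GENCODE M21 starts C1qtnf6 further upstream than RefSeq does, so its printed window lies inside that gene model. GENCODE M21 also starts Crhbp 93 bases, and Cgref1 111 or 164 bases by entry, before the RefSeq start site from which the distances were counted. A match describes letters and is no evidence of binding.

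The libraries held 12982794 to 30238443 counts in all. These were whole-number estimated counts of which about 4 were taken as 1 fragment, and a gene at or under 12 counts in a library was taken as at the detection floor. Nr5a1 averaged 50.2 ± 20.5 CPM (counts scaled to library size, SD, n = 4) in PE+/- males and 0.347 ± 0.304 (n = 4) in PE-/- males, and 38.7 ± 5.13 (n = 4) in PE+/- females and 0.724 ± 0.151 (n = 3) in PE-/- females. Xist and 4 Y-linked genes followed the labelled sex. The first principal component of the logged values, which held 14.4% of the variance, set the 4 PE+/- females (-95.8 to -52.8) apart from the other 11 libraries (5.68 to 43.0). On the second, which held 10.8%, PE+/- male 2 (81.8) and PE+/- female 1 (68.2) stood highest. Markers of the glands' cell types were detected, with all 6 gonadotrope markers (Nr5a1, Lhb, Fshb, Gnrhr, Nr0b1 and Tgfbr3l) above the floor in every PE+/- library. Since whole glands were sequenced, fewer cells of a type and less RNA per cell cannot be told apart.

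Crhbp (chr13:95431371-95444924 on mm10, minus strand) was present in PE+/- females and at the floor elsewhere. The 4 PE+/- females held 328, 161, 471 and 315 CPM (319 ± 127, SD, n = 4), which rested on 3852 to 8650 counts a library. In the 4 PE+/- males the gene had 0 counts in every library, in the 4 PE-/- males 0, 0, 9 and 8 counts, and in the 3 PE-/- females 0, 7 and 0 counts. The lowest PE+/- female thus stood far above every other library, and no library of the other 3 groups passed the floor. From pooled counts, the level in PE+/- females was 3119 times that in PE-/- females (95% Poisson interval 755 to 22534, from about 2 fragments in PE-/- females) and 1526 times that in PE-/- males (633 to 5952, from about 4 fragments). Against PE+/- males it was at least 438-fold higher, with the floor of 12 counts per library in place of 0. These intervals rest on pooled counts, so they cover counting error only and leave out the spread between libraries. Each varies the level of the lower group and holds that of PE+/- females fixed, although these ran from 161 to 471 CPM. They are therefore not intervals for the difference between the groups. The reads also carried no molecular identifiers. By mean CPM, Crhbp ranked 363rd of 19286 genes in PE+/- females.

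**Figure D1:**
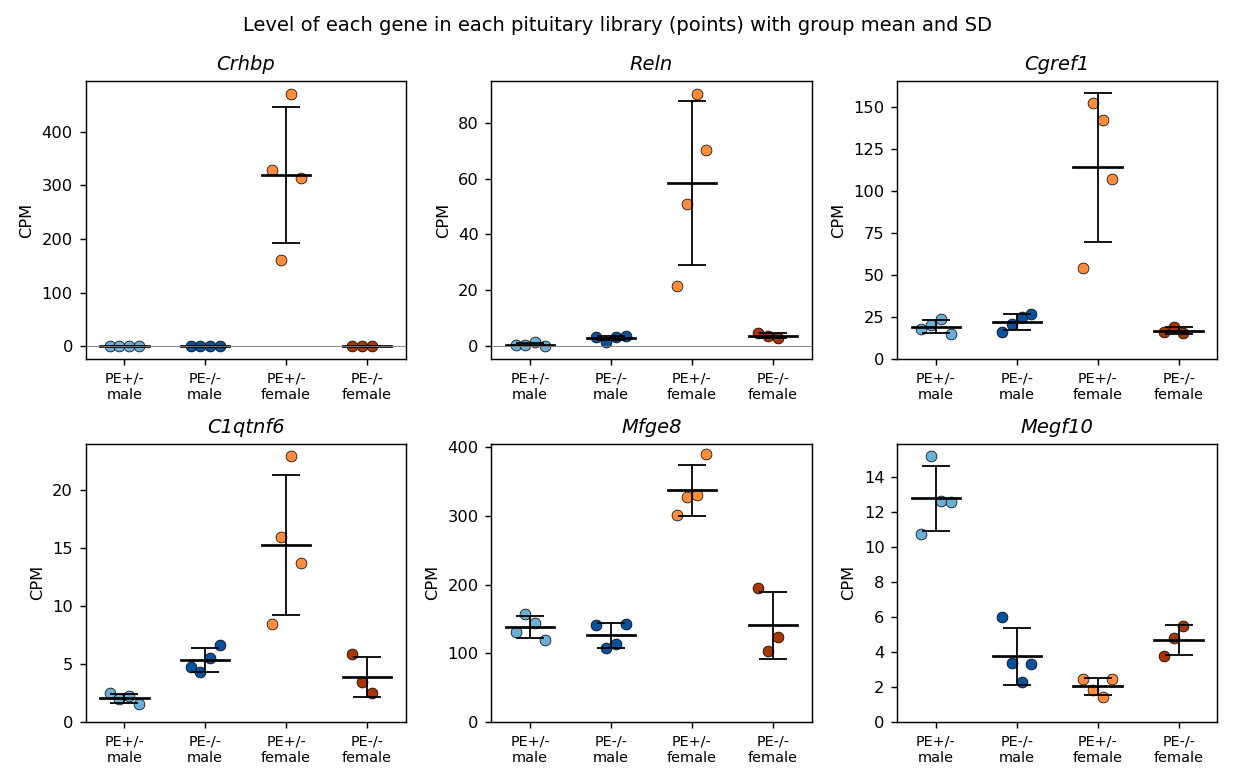
Level in CPM (counts scaled to library size, vertical axis, linear and from 0) of each of the 6 genes in each of the 15 libraries (points), with the group mean (long bar) and SD (short bars); n = 4 per group and 3 in PE-/- females. Crhbp, Reln, Cgref1, C1qtnf6 and Mfge8 were highest in the 4 PE+/- females, and Megf10 was highest in the 4 PE+/- males and lowest on average in the PE+/- females.

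Reln (chr5:21884454-22344702, minus strand) had the same leading group and a lower level, with a second order among the remaining groups. PE+/- females held 21.4, 51.1, 90.4 and 70.2 CPM (58.3 ± 29.4, SD, n = 4), and PE-/- females 4.51, 3.59 and 2.76 CPM (3.62 ± 0.876, n = 3). PE-/- males held 3.14, 1.61, 3.09 and 3.59 CPM (2.86 ± 0.861, n = 4), while PE+/- males held 0.211, 0.278, 1.28 and 0 CPM (0.443 ± 0.571, n = 4) and passed the floor in 1 library, replicate 3. The 4 PE+/- females did not overlap any other group, the 2 PE-/- groups overlapped each other, and the PE+/- males lay below all of them. The mean of PE+/- females was 16.1 times that of PE-/- females and 132 times that of PE+/- males, and the latter ratio is set against a group largely at the floor. In males the mean was 6.45 times higher in PE-/- than in PE+/-. The fitted log2 fold change of PE-/- against PE+/- was -4.01 in females (SE 0.52) and 2.66 in males (SE 0.85). Without PE+/- male 3 the value in males became 4.02 and the log2 difference between PE+/- females and PE+/- males went from 7.01 to 8.35. An antisense gene, Gm10475, shares exon bases with Reln and had at most 16 counts in a library; without strand, reads in the shared bases cannot be told apart.

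Cgref1 (chr5:30933143-30945591, minus strand) was higher in PE+/- females than in the other 3 groups, which lay together. The PE+/- females held 54.4, 153, 142 and 107 CPM (114 ± 44.3, SD, n = 4). PE-/- females held 16.3, 19.0 and 15.4 CPM (16.9 ± 1.90, n = 3), PE+/- males 18.2, 20.5, 23.7 and 14.9 CPM (19.3 ± 3.69, n = 4) and PE-/- males 16.1, 21.0, 24.9 and 26.6 CPM (22.1 ± 4.68, n = 4). The last 3 groups overlapped one another and ended below the lowest PE+/- female, replicate 1. The PE+/- female mean was 6.76 times that of PE-/- females and 5.91 times that of PE+/- males. The log2 fold change of PE-/- against PE+/- was -2.76 in females (SE 0.37) and 0.19 in males (SE 0.20).

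C1qtnf6 (chr15:78523346-78531416, minus strand) was, like Reln, higher in PE+/- than in PE-/- females and lower in PE+/- than in PE-/- males, at a lower level. PE+/- females held 8.44, 15.9, 22.9 and 13.7 CPM (15.3 ± 6.0, SD, n = 4), and PE-/- females 5.81, 3.40 and 2.45 CPM (3.89 ± 1.73, n = 3). PE+/- males held 2.47, 1.95, 2.20 and 1.55 CPM (2.04 ± 0.389, n = 4) and PE-/- males 4.75, 4.33, 5.48 and 6.66 CPM (5.31 ± 1.02, n = 4). As for Reln, the PE+/- females were highest in every library, the 2 PE-/- groups overlapped and the PE+/- males were lowest on average, although PE-/- female 3 fell among them. The mean of PE+/- females was 3.92 times that of PE-/- females, and the mean of PE-/- males was 2.60 times that of PE+/- males. The log2 fold changes were -1.99 in females (SE 0.42) and 1.37 in males (SE 0.24). The antisense gene Gm49490, which shares exon bases with C1qtnf6, reached at most 25 counts in a library.

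Mfge8 (chr7:79133768-79149060, minus strand) was the most abundant of the 6 in every group by mean CPM, with the smallest spread of log2 CPM within groups. PE+/- females held 301, 327, 330 and 390 CPM (337 ± 37.8, SD, n = 4), against 196, 103 and 124 CPM in PE-/- females (141 ± 48.8, n = 3). PE+/- males held 131, 157, 145 and 120 CPM (138 ± 16.2, n = 4) and PE-/- males 140, 107, 113 and 143 CPM (126 ± 18.4, n = 4). The 3 groups other than PE+/- females overlapped one another, and PE-/- female 1 was the highest library among them. The PE+/- female mean was 2.40 times that of PE-/- females and 2.44 times that of PE+/- males. The log2 fold change was -1.27 in females (SE 0.24), or -1.58 without PE-/- female 1, and -0.13 in males (SE 0.14).

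Megf10 (chr18:57133090-57297467, plus strand) had its highest level in PE+/- males and its lowest mean in PE+/- females, the leading group of the other 5 genes. PE+/- males held 10.7, 15.2, 12.6 and 12.5 CPM (12.8 ± 1.85, SD, n = 4), and PE-/- males held 6.02, 3.37, 2.25 and 3.30 CPM (3.73 ± 1.61, n = 4). PE-/- females held 3.77, 4.80 and 5.47 CPM (4.68 ± 0.859, n = 3) and PE+/- females 2.42, 1.80, 1.42 and 2.44 CPM (2.02 ± 0.501, n = 4). The PE+/- males overlapped no other group, the 2 PE-/- groups overlapped each other, and the PE+/- females lay below the PE-/- females but overlapped the PE-/- males. The mean was 3.42 times lower in PE-/- than in PE+/- males and 2.32 times higher in PE-/- than in PE+/- females. The log2 fold changes were -1.78 in males (SE 0.30) and 1.21 in females (SE 0.29).

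Scaled per kilobase of annotated exon, which allows levels of different genes to be compared, Crhbp stood first in PE+/- females at 177 CPM per kilobase, before Mfge8 at 71.8 and Cgref1 at 54.8. C1qtnf6 followed at 5.64, Reln, whose exons are the longest of the 6, at 2.45 and Megf10 at 0.262 CPM per kilobase. In PE+/- males Mfge8 led at 29.4 CPM per kilobase, before Cgref1 at 9.29 and Megf10 at 1.66, and C1qtnf6 (0.755), Reln (0.0186) and Crhbp (0) came last. Crhbp thus went from the first place in one control group to the last in the other, and Megf10 from the third in males to the last in females.

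Fitted with edgeR's quasi-likelihood test over all genes, with an adjusted p under 0.05 as the threshold, the 6 genes spread unevenly over the 5 comparisons. For PE-/- against PE+/- in females 3 of 6 passed (Crhbp, Reln and Cgref1, all lower), where 1.05% of 18085 genes did and 0.697% were lower, and the groups did not overlap for 6 of 6, where 18.6% of genes had groups that did not overlap. For the same comparison in males 0 of the 5 tested passed, where 0.132% of 17392 genes did, and groups did not overlap for Reln, C1qtnf6 and Megf10, where 4.56% of genes had such groups. Crhbp was too low to be tested in males and in the comparison of PE-/- mice. For PE+/- females against PE+/- males 6 of 6 passed (0.67% of 17163 genes) and 6 of 6 did not overlap (9.75%), and for PE-/- females against PE-/- males 0 of 5 passed (0.0494% of 18217 genes) and 0 of 6 were free of overlap (5.24%). In the fit for the difference between the sexes in the genotype change, over all 15 libraries, 5 of 6 passed, where 0.161% of 19286 genes did. As the genes were picked for such differences, nothing is read from these shares.

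The sex difference of the controls was large for all 6 genes and small between the PE-/- groups. Between PE+/- females and males the log2 fold change was 7.01 for Reln (SE 0.94), 2.90 for C1qtnf6 (SE 0.33) and 2.56 for Cgref1 (SE 0.32). For Mfge8 it was 1.29 (SE 0.13) and for Megf10 -2.66 (SE 0.24). Between PE-/- females and males it was 0.35 for Reln, -0.39 for Cgref1 and -0.45 for C1qtnf6, with 0.33 for Megf10 and 0.16 for Mfge8. The median over the genes tested was 2.73 in PE+/- mice (6 genes) and 0.16 in PE-/- mice (5 genes, without Crhbp), where the medians of all genes were -0.01 and -0.0024. Those medians were -2.37 for the genotype change in females (6 genes) and 0.19 in males (5 genes, without Crhbp), beside 0.0018 and 0.0027 over all genes. The medians join genes of opposite sign, and in males the single values ran from -1.78 for Megf10 to 2.66 for Reln. The comparisons share their control libraries, so their values are set side by side and were not correlated.

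**Figure D2:**
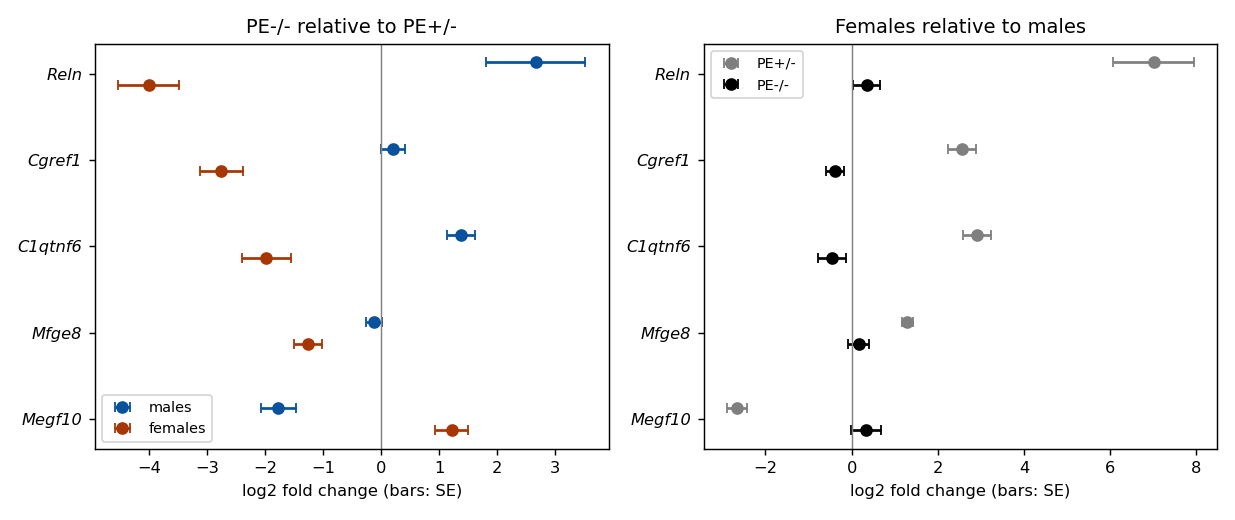
Fitted log2 fold change (horizontal axis) of the 5 genes tested in all comparisons; bars are the SE. Left, PE-/- against PE+/- mice in males (blue) and females (red); right, females against males in PE+/- (grey) and PE-/- (black) mice. Reln, Cgref1, C1qtnf6 and Megf10 lie on opposite sides of 0 in the 2 sexes, Cgref1 within 1 SE of 0 in males, and the black points of all 5 lie between -0.45 and 0.35.

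The calls were less steady than the folds when single libraries were left out. In females the call of Crhbp held without any 1 of the 7 libraries, that of Reln was lost without PE+/- female 2 or 4 or without PE-/- female 1, 2 or 3, and that of Cgref1 without PE+/- female 2, 3 or 4 or without any 1 PE-/- female. Over these fits the log2 fold change of Reln stayed between -4.29 and -3.72 and that of Cgref1 between -2.99 and -2.59. Without PE+/- male 2, which stood apart on the second component, 3 of the 6 sex differences of PE+/- mice passed in place of 6, with 6.81 for Reln, 2.59 for Cgref1 and 2.87 for C1qtnf6 on the log2 scale. Between the PE+/- sexes the call of Reln was also lost without PE+/- female 2, 3 or 4 or PE+/- male 1, and that of Cgref1 without PE+/- female 3 or 4 or PE+/- male 1 or 4, with log2 differences of 6.61 to 8.35 for Reln and 2.40 to 2.79 for Cgref1 over these fits. Without PE+/- female 1, the other such library, 3 of 6 passed in females and 6 of 6 in PE+/- mice. For the difference between the sexes in the genotype change, 0 of 6 passed without PE-/- female 3, 3 without PE-/- female 1 and 3 without PE-/- male 4, while Reln alone was lost without PE-/- female 2 or PE+/- male 2 and Crhbp alone without PE-/- male 3.

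Among the 4 PE+/- females the 5 genes of the higher group did not all follow one order. Replicate 1 was the lowest for Reln, Cgref1, C1qtnf6 and Mfge8 but the second highest for Crhbp, whose lowest library was replicate 2. Replicate 3 was the highest for Crhbp, Reln and C1qtnf6. Over the 15 libraries, Pearson's r of log2 CPM between pairs of the 6 genes ran from -0.91 (C1qtnf6 with Megf10) to 0.95 (Crhbp with Cgref1). After the group means were subtracted it ran from -0.58 for C1qtnf6 with Megf10 to 0.68 for Cgref1 with C1qtnf6, and the highest value of Crhbp was 0.27, with Cgref1. These correlations describe the libraries, which share group, depth and gland makeup, and no p-value is attached.

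**Figure D3:**
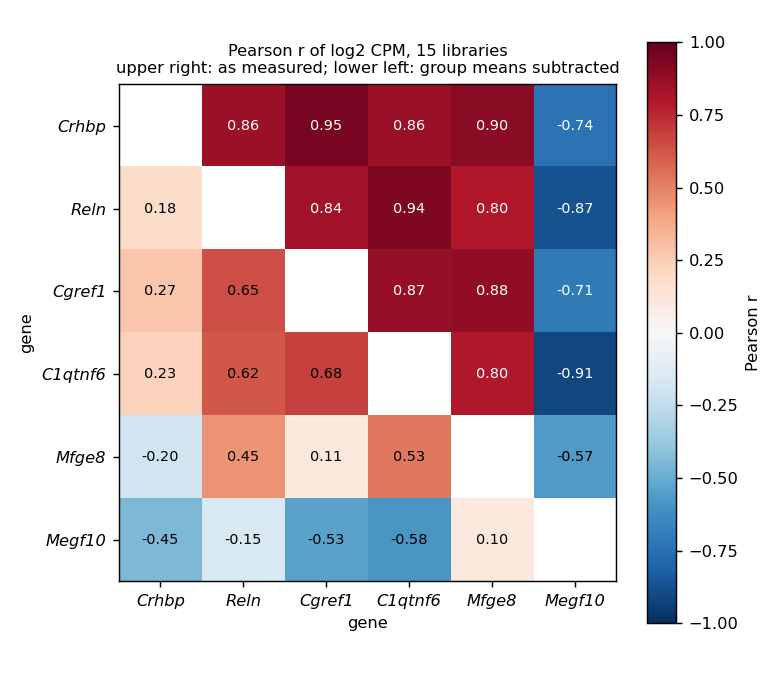
Pearson's r of log2 CPM over 15 libraries for each pair of the 6 genes (colour scale from -1 to 1), as measured above the diagonal and with group means subtracted below it. Above the diagonal Megf10 is negative with the other 5 genes and those 5 are positive with one another; below it the values are smaller, and Reln, Cgref1 and C1qtnf6 are the trio with r over 0.6 in each pair.

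For each gene the 3 genes with the most similar pattern were taken by Pearson's r over the 15 libraries among 19285 genes. This r includes the differences between groups by which the 6 genes were chosen. With group means subtracted, r over the pairs named here ran from 0.0074 (Crhbp with Kcns2) to 0.885 (Reln with Scn11a). Crhbp was nearest to Tspan7 (r = 0.976), Kcns2 (0.965), a subunit of voltage-gated potassium channels, and Olfm3 (0.961). With group means subtracted, the values of Tspan7 and Olfm3 were 0.315 and 0.699. Kcns2 was listed at 0 CPM in every library of the other 3 groups and at 5.68 ± 2.96 CPM (SD, n = 4) in PE+/- females, and Tspan7 at 1160 ± 226 CPM in PE+/- females with means of 317 to 330 CPM in the other groups. Reln and C1qtnf6 were each other's nearest genes (r = 0.937, and 0.621 with group means subtracted). Reln was next nearest to the tight-junction gene Cldn8 (0.919) and the sodium channel gene Scn11a (0.919), and C1qtnf6 to the protocadherin gene Pcdh11x (0.920) and to Rps15a-ps6 (0.914), a pseudogene whose reads are uncertain.

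Cgref1 was nearest to Cd63-ps (r = 0.980), a near copy of Cd63 that may share its reads, to Kcns2 (0.972) and to Impg1 (0.972). Mfge8 was nearest to AI506816 (0.975), to the collagen gene Col1a2 (0.949) and to Pycr1 (0.943), an enzyme of proline synthesis. Col1a2 averaged 165 ± 27.0 CPM (SD, n = 4) in PE+/- females and 42.9 to 54.0 CPM in the other groups. Megf10 was nearest to Mgat4c (0.927), to the lipid droplet gene Plin3 (0.911) and to the neurofilament gene Nefh (0.888). Nefh had the same order of means as Megf10 in the controls, 19.3 ± 1.66 CPM in the males and 8.77 ± 1.24 CPM in the females (SD, n = 4 each).

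The receptors, ligands and relatives of the 6 genes, with further genes listed beside them, were followed in 5 lists of 76 genes in all. By edgeR on the libraries of the groups compared 0 of them passed in any comparison, out of 58 tested in males, 60 in females, 61 for the difference between the sexes, 59 in PE+/- mice and 59 in PE-/- mice. Over all genes 0.132%, 1.05%, 0.161%, 0.67% and 0.0494% passed in that order, so that fewer than 1 of the listed genes would pass in each comparison at those shares. At an unadjusted p under 0.05 there were 4, 15, 5, 7 and 1 listed genes, where 6.14%, 16.1%, 10.1%, 13.5% and 3.37% of all genes were. DESeq2 called 0, 7, 1, 1 and 0 of them, where it called 1.19%, 7.96%, 2.09%, 5.38% and 0.227% of all genes with an adjusted p. Each median log2 fold change of the lists in females lay between -0.06 and 0.60, beside 0.0018 over all genes, and the highest was that of the 3 CRH genes tested.

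Of the 8 genes of the CRH system 3 were tested, and the ligands were at or near the floor in the gland. Crh had 0 counts in 3 of the groups and at most 9 counts in a PE-/- male, Ucn2 had at most 6 counts and the receptor gene Crhr2 at most 10 counts. Crhr1, the receptor of corticotropes, was at 13.1 ± 5.26 CPM (SD, n = 4) in PE+/- females and 20.02 ± 7.07 CPM (n = 3) in PE-/- females, and at 16.9 ± 9.20 and 20.8 ± 4.77 CPM in PE+/- and PE-/- males (n = 4 each), with a log2 fold change of 0.60 in females (edgeR adjusted p = 0.519). Pomc differed by 0.45 in females (edgeR adjusted p = 0.455). Nr3c1, the glucocorticoid receptor, was at 94.98 ± 22.2 CPM in PE+/- females and 174 ± 21.6 CPM in PE-/- females, a log2 difference of 0.86 that missed the threshold (edgeR adjusted p = 0.0999) and passed by DESeq2 (adjusted p = 0.00838) and by edgeR with the spread estimated over all 15 libraries (log2 difference 0.87, adjusted p = 0.0449).

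Of the reelin pathway, 17 to 19 of the 19 genes were tested and 0 passed by edgeR. The reelin receptors were both present in every group, Vldlr at 9.64 ± 3.19 CPM (SD, n = 4) in PE+/- females and 5.49 ± 0.545 CPM (n = 3) in PE-/- females, a log2 difference of -0.82 (edgeR adjusted p = 0.227), and Lrp8 at means of 7.54 to 9.59 CPM over the 4 groups. The adaptor gene Dab1 was lower, at means of 1.79 to 2.90 CPM. Adamts2, whose product can cleave reelin, was at 4.71 ± 4.09 CPM in PE+/- females and 0.675 ± 0.158 CPM in PE-/- females, a log2 difference of -2.78 with edgeR adjusted p = 0.0995, and 1 library of the PE+/- females reached 10.8 CPM where the median was 2.69 CPM. It passed by DESeq2 (adjusted p = 0.00123), as did the integrin gene Itga3, with a log2 difference of 0.74 (adjusted p = 0.0495).

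Of the 19 C1q/TNF relatives and adiponectin receptors, 10 or 11 were tested. The receptor genes Adipor1 and Adipor2 had group means of 81.2 to 113 CPM and 40.0 to 48.4 CPM. Cbln1, a secreted C1q relative that organises synapses, was at 2.62 ± 1.06 CPM (SD, n = 4) in PE+/- females and 8.70 ± 1.09 CPM (n = 3) in PE-/- females, and the 2 groups did not overlap. Its log2 difference of 1.73 missed the threshold by edgeR (adjusted p = 0.0634), and passed by DESeq2 (adjusted p = 0.000105), with counts divided by 4 (adjusted p = 0.0374), with the spread estimated over all 15 libraries (adjusted p = 0.0119) and without PE+/- female 1 (adjusted p = 0.0232), all 3 by edgeR. C1ql2 was at 52.5 ± 35.5 and 14.6 ± 4.06 CPM, a log2 difference of -1.85 (edgeR adjusted p = 0.137, DESeq2 0.0066). C1qtnf1 passed by edgeR only without PE+/- female 3, at a log2 difference of -1.32 (adjusted p = 0.0468). These 3 genes, and Pomc, Nr3c1, Adamts2, Itga3, Pros1 and Elmo1, were named after their values were seen.

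Of the 24 engulfment genes around Mfge8 and Megf10, 21 or 22 were tested and 0 passed by edgeR. The integrin subunit gene Itgav, by which MFGE8 is bound, had means of 21.7 to 25.6 CPM, and its partners Itgb3 and Itgb5 had means of 2.98 to 5.17 and 7.73 to 9.98 CPM. Edil3, the closest relative of Mfge8, was at 54.4 ± 12.95 CPM (SD, n = 4) in PE+/- females and 31.7 ± 6.22 CPM (n = 3) in PE-/- females, a log2 difference of -0.79 (edgeR adjusted p = 0.173). Megf11, the relative of Megf10, had means of 10.5 to 18.3 CPM, the bridging ligand gene Gas6 29.5 to 37.7 CPM and its receptor gene Mertk 0.915 to 1.97 CPM. Pros1, a further bridging ligand, and Elmo1, which acts in engulfment inside the cell, passed in females by DESeq2, with log2 differences of 0.56 (edgeR adjusted p = 0.126, DESeq2 0.0137) and -1.01 (edgeR adjusted p = 0.132, DESeq2 0.0187), and Pros1 also passed with the spread estimated over all 15 libraries (edgeR adjusted p = 0.0489). The 6 genes listed beside Cgref1 were Cgrrf1, Mcfd2, Lman1, Trp53, Cdkn1a and Mdm2. All were tested, 0 passed, and Cgrrf1 had means of 39.8 to 53.2 CPM.

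**Figure D4:**
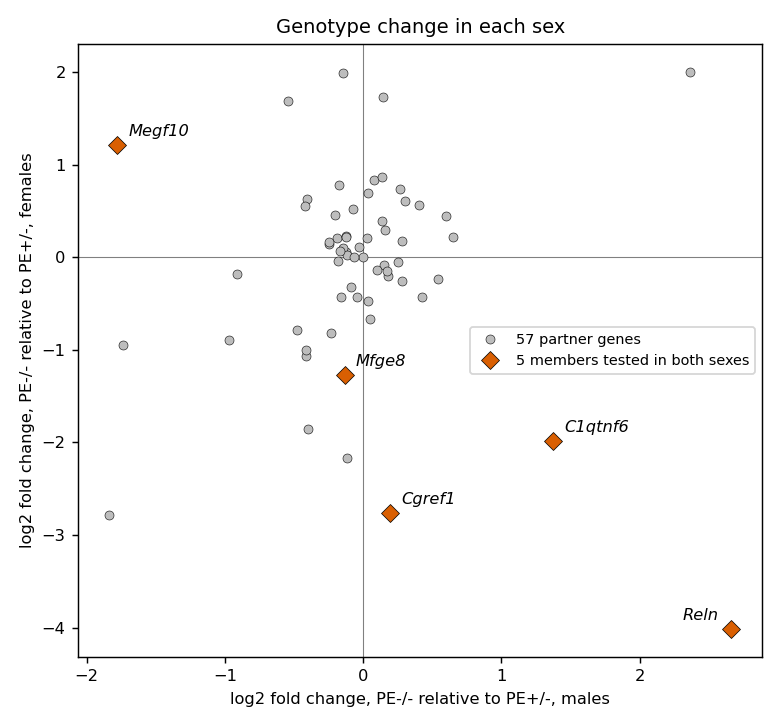
Log2 fold change of PE-/- against PE+/- mice in males (horizontal axis) and females (vertical axis) for the 57 listed genes tested in both sexes (grey circles) and 5 of the 6 genes (orange diamonds). Crhbp was not tested in males. The grey points run from -1.83 to 2.37 in males and from -2.78 to 2.0 in females, and Reln lies outside that range on both axes.

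Cell type markers differed between some of these groups and overlapped between others. In PE+/- males the sum of the 6 gonadotrope markers ran from 2732 to 4283 CPM and in PE-/- males from 18.2 to 155 CPM, and in females it ran from 625 to 2226 CPM (PE+/-) and from 61.0 to 119 CPM (PE-/-), with 4 of 6 markers above the floor in every library of both PE-/- groups. Prl, the lactotrope hormone, was at 21965 to 35113 CPM in PE+/- females and 4459 to 5603 CPM in PE-/- females, which did not overlap, and at 12285 to 31183 and 4753 to 41223 CPM in PE+/- and PE-/- males, which did. The 2 somatotrope markers summed to 134247 to 186947 CPM in PE+/- males and to 59381 to 104861 CPM in PE+/- females, and the 5 markers of stem or folliculostellate cells, of which 4 passed the floor in every library, to 64.2 to 94.8 CPM in PE+/- females and 109 to 155 CPM in PE-/- females. The somatotrope sum was 65646 to 129662 CPM in PE-/- males, below every PE+/- male. Almost all of this sum was Gh, and the second marker, Ghrhr, did not separate these groups. Ghrhr was at 58.4 to 97.8 CPM in PE+/- males, 28.4 to 112.9 CPM in PE-/- males and 43.0 to 72.1 CPM in PE+/- females, which overlapped. The 4 posterior lobe markers, of which 1 or 2 passed the floor in every library of a group and Nkx2-1 was at 0 in every PE-/- female, summed to 6.41 to 19.0 CPM in PE+/- females and 2.76 to 5.26 CPM in PE-/- females, which did not overlap, and to 3.66 to 168 and 3.84 to 93.1 CPM in PE+/- and PE-/- males. The lower sum in PE-/- females came from Col25a1, with means of 10.5 CPM in PE+/- and 1.28 CPM in PE-/- females. Scn7a went the other way, with means of 1.59 and 2.98 CPM, and Rax and Nkx2-1 did not pass the floor in any female library. Mesenchymal markers, all 4 above the floor throughout, overlapped between all groups at 124 to 255 CPM, and the 5 endothelial markers, at 77.5 to 354 CPM, overlapped between the groups of each comparison. The part of these shifts in the levels of the 6 genes was not tested.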

How the data were processed

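Total RNA of whole pituitaries was made into libraries with a low-input kit and read in pairs. Per the labels and the study's methods, the authors trimmed reads with cutadapt, mapped them to mm10 (GRCm38) with STAR and used featureCounts for counting. The deposited values are unnormalized, whole-number estimated counts per gene. Many rows are named as assembled loci and the values are spaced unlike plain featureCounts output, and the step that made them is not given in the sources used here. In 34309 single-transcript rows for instance, the value 5 occurred 1.41 times and the value 9 1.16 times as often as its neighbours. About 4 counts were taken as 1 fragment and 12 counts, 3 fragments, as the floor. This ratio is an assumption that the spacing does not fix. No strand setting is stated. All 15 columns matched a sample by name, with 0 left over, and of symbols held by several rows the 1 with the highest summed count was taken (the second Reln row held 5 counts in all).

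In R 4.3.3, edgeR 4.0.16 kept genes by filterByExpr (minimum count 10, minimum total 15), scaled libraries by TMM and applied the two-sided quasi-likelihood F test to the libraries of the groups compared (all 15 for the interaction), with Benjamini-Hochberg adjustment over all genes tested. The SE was derived as the absolute fold change over the root of F. The members and the lists of related genes and markers were chosen with earlier results of these data known. Named besides the 6 genes were the 3 genes most correlated with each, listed genes past the threshold, and key receptors and ligands given by level. CPM used TMM-scaled library sizes, and correlations used log2 CPM with a prior count of 2. Gene positions came from GENCODE M21 and promoters from RefSeq. Between replicates, chi-square over its degrees of freedom ran from 71.4 to 231, above counting noise, so library totals alone did not set the precision. The alternatives were DESeq2 1.42.0, other filters and scalings, counts divided by 4, a spread shared over 15 libraries, a replicate block and leaving out each library. Sorted gonadotropes were not analysed here.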

Additional observations from a re-analysis of the deposited data

Results flagged for a closer look

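For 5 of the 6 genes the genotype change differed between the sexes in the test of the difference itself (edgeR's interaction term over 15 libraries, adjusted p under 0.05), which 0.161% of 19286 genes passed; 0 of the 6 passed without PE-/- female 3 and 1 with a replicate block. The log2 difference, females minus males, was -6.67 for Reln (SE 1.0), -3.36 for C1qtnf6 (SE 0.48), -2.95 for Cgref1 (SE 0.41) and 2.99 for Megf10 (SE 0.41). For Crhbp it was fitted at -16.76, a value set by the prior count since 3 of the 4 groups were at the floor. The genes had been chosen for such differences, so these calls lend no support to them. Mfge8, at -1.13 (SE 0.27), did not pass. Dixon's test flagged no library in any of the 17 groups of 4 values tested. It was not run on the PE-/- females, which had fewer libraries, and it can flag little among 4 values, so it clears no library.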

How the results depend on the processing

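Of 500 log2 fold changes of the 6 genes under the alternatives, 484 moved by less than the spread between replicates, 16 by more and 0 called values reversed, and 499 kept their sign. The exception was Mfge8 between PE-/- females and males, which went from 0.16 to -0.15 without PE-/- female 1. The counts of genes called moved more. For members past the threshold in males (0 of 5), DESeq2 called 2, the fit with all 15 libraries 1, and leaving out single libraries 0 to 1. In females (3 of 6) DESeq2 and the fit with all 15 libraries each called 6, library totals and counts divided by 4 each called 4, and leaving out single libraries 1 to 3. For the interaction (5 of 6) DESeq2 called 6, and leaving out single libraries gave 0 to 5, and for the sexes in PE+/- mice (6 of 6) 3 to 6. For the related genes in females (0 of 60) DESeq2 called 7, counts divided by 4 gave 1, all 15 libraries 3 and leaving out single libraries 0 to 1. DESeq2 called 1 of them for the interaction and 1 in PE+/- mice, where all 15 libraries also gave 1. The cause was not tested. Same-numbered libraries deviated together with a correlation over 0.1 in 2 of 21 cases (-0.081 to 0.13), and 6 of 21 correlated best with their own number. Between PE+/- and PE-/- females, replicates 1 (0.13) and 2 (0.087) correlated best with their own number and replicate 3 (-0.047) did not. With so few libraries a group, these correlations cannot settle whether replicate numbers pair the libraries. With a replicate block 0 members passed in females, 1 for the interaction and 0 for the sexes in PE+/- mice. The 3 PE-/- females and the assumed 4 or so counts per fragment limit what low genes such as Scn11a or Mertk can show. Crhbp outside PE+/- females rests on at most 9 counts a library.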
